A study of Mus musculus with 12 samples.

Results

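Lgals4 and Lgals6 encode galectins, proteins that bind sugar chains ending in galactose. These 2 genes, among the 20661 genes named on the array, had 4 of its 55681 non-control probes. Probe A_52_P154741 represented Lgals6, and probes A_51_P497100, A_55_P2063256 and A_55_P2063257 carried transcript accessions of Lgals4. The Lgals6 probe was chosen because it was listed as different between the genotypes on these same arrays, so its genotype difference is described here without a test. The Lgals4 probes were chosen by gene name.

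Galectins share a carbohydrate-binding domain and are made without a secretion signal, yet act outside as well as inside the cell. Lgals4 and Lgals6 belong to the tandem-repeat type, in which a single chain carries a pair of such domains. Both are best known from the epithelium of the digestive tract, where galectin-4 binds sulfated glycolipids and takes part in sorting proteins to the apical membrane. The genes are close paralogues that lie side by side on mouse chromosome 7, and Lgals6 is present in some laboratory strains and absent from others. It is not in the RefSeq gene table of C57BL/6J used here (GRCm38.p6), whereas Lgals4 is.

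Expression was measured in 12 male mouse induced pluripotent stem (iPS) cell clones, 6 Aid+/+ and 6 with disrupted Aid (Aid-/-), with 1 array per clone. The question behind the comparison was whether iPS cells made without Aid differ from those made with it. All clones came from embryonic fibroblasts reprogrammed with retroviral factors, carried a Nanog-GFP reporter, had a mixed C57BL6, DBA and 129S4 background, and were grown to passage 6 on gelatin with LIF, 20% FBS and 2 μg/mL puromycin. The strain label is the same for every clone, and which alleles each clone carried around Lgals4 was not measured. Clone names group them into 4 series of 3. The Aid+/+ series were 967B (967B2, 967B4, 967B6) and 979B (979B1, 979B3, 979B4). The Aid-/- series were 979F (979F1, 979F2, 979F3) and the E series (981E1, 981E4, 981E5). Each clone grew from a single colony, and clones of a series may share their starting fibroblasts, so errors give the spread between clones. Series 967B was on slide 1, 979F on slide 2, and 979B and the E series on slide 3, so within a genotype series and slide cannot be told apart.

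On each array, 56.9 to 60.4% of the probes were well above background, and none was saturated. The number of arrays limits the precision of every value below. The 8 markers of pluripotent cells (Pou5f1, Sox2, Nanog, Zfp42, Esrrb, Dppa5a, Utf1 and Tdgf1) were well above background on every array. Clone 967B4 stood apart from the other Aid+/+ clones at several of the probes described here, so some values are also given without it. The summed level of the pluripotency markers was 742 to 1030 times the 75th percentile of the array in Aid+/+ clones (742 to 878 without 967B4). In Aid-/- clones it was 714 to 914 times.

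The Lgals6 probe was dim in every Aid+/+ clone and brighter in every Aid-/- clone. Its processed signal, in arbitrary units, was 26.7 in 967B2, 52.2 in 967B4, 45.6 in 967B6, 30.0 in 979B1, 23.1 in 979B3 and 29.3 in 979B4. In the Aid-/- clones it was 363 in 979F1, 194 in 979F2, 234 in 979F3, 165 in 981E1, 364 in 981E4 and 411 in 981E5. The dimmest Aid-/- clone, 981E1, thus exceeded the brightest Aid+/+ clone, 967B4, and the genotypes did not overlap. In RNA from whole cultures, more cells with a transcript and more transcript per cell cannot be told apart.

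To compare arrays, log2 of the processed signal was taken and the 75th percentile of the array was subtracted, so that 0 marks that percentile. On this scale Lgals6 was -3.79 ± 0.46 in Aid+/+ and -0.83 ± 0.60 in Aid-/- iPS cells (average ± SD, n = 6 clones each). The log2 difference was 2.96 (SE 0.29, 95% interval 2.33 to 3.59), a fold of 7.78. This value chose the probe and is given as a description. In Aid+/+ clones the probe lay close to the dimmest signals that count as well above background, between 0.62 and 2.05 log2 units over them, and in Aid-/- clones between 3.31 and 4.82 units over them. Normexp background correction was also run in place of that of the authors' software, with an offset of 50 added to every signal. The log2 difference was then 1.75. Such an offset by itself shrinks the fold of a dim probe, and normexp was not run without it. The size of the fold thus depends on the correction and the offset together. The direction did not.

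Because the genotypes did not overlap, Lgals6 had to be higher in Aid-/- clones in all 4 pairings of series and without any 1 clone. Only the sizes are described. The log2 difference was 3.06 for 979F against 979B, which share the number in their names, 3.34 for the E series against 979B, which share a slide, 2.86 for the E series against 967B and 2.58 for 979F against 967B, a pairing added after seeing the data. In the last 2 pairings, fitted alone, the Lgals6 probe did not pass the thresholds given below. Leaving out any 1 clone gave 2.81 to 3.12.

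**Figure D1:**
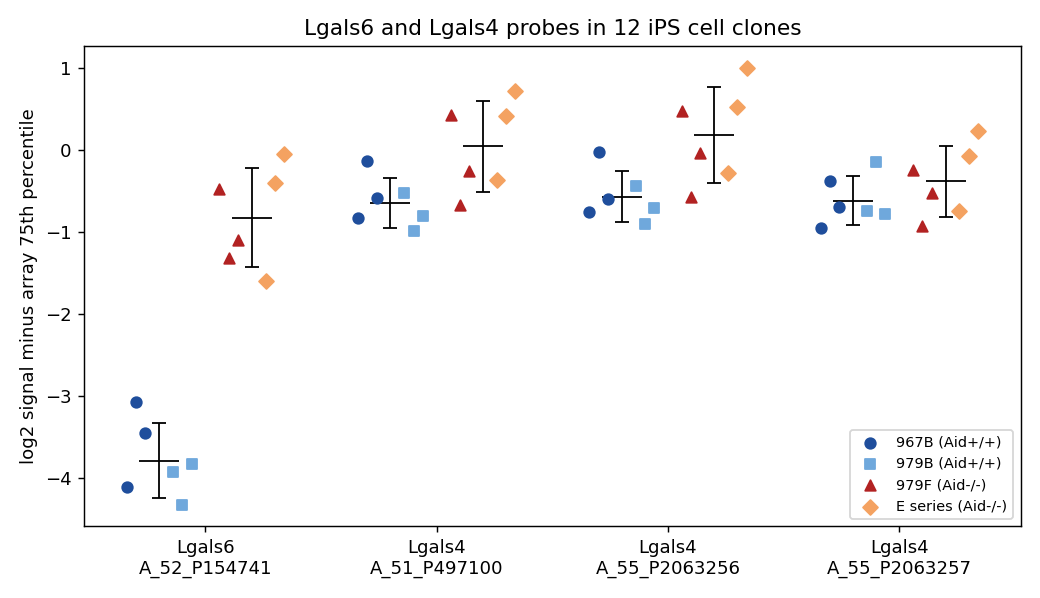
Log2 signal minus the 75th percentile of the array (vertical axis) for the 4 probes in each of the 12 clones, with colours and symbols for the series and black bars for the average and SD of 6 clones per genotype. The Lgals6 points of Aid+/+ clones lie between -4.32 and -3.07 and those of Aid-/- clones between -1.60 and -0.05, whereas the genotypes overlap at all 3 Lgals4 probes.

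The 250 bases before the annotated start of Lgals4 (chr7:28833544-28833793, plus strand, GRCm38.p6, RefSeq), shown because loss of Aid was studied for its possible role in DNA demethylation, held 2 CG steps, in capitals here.
Lgals4 promoter: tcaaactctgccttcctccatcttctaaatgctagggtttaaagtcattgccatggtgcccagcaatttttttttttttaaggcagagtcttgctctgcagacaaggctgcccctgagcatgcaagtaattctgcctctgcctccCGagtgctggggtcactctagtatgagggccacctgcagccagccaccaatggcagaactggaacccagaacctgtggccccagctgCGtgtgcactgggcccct
Of 32851 RefSeq promoter windows of this length, 29.0% held as few CG steps, and the median held 6. Methylation was not measured on these arrays.

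Lgals4 was clearly detected in both genotypes. Probe A_51_P497100 gave processed signals of 259, 401 and 330 in 967B2, 967B4 and 967B6, and of 314, 233 and 238 in 979B1, 979B3 and 979B4. In the Aid-/- clones it gave 681, 304 and 419 in 979F1, 979F2 and 979F3, and 388, 638 and 704 in 981E1, 981E4 and 981E5. Clones 979F1, 981E4 and 981E5 were above every Aid+/+ clone, 979F3 was so before but not after the arrays were scaled, and 979F2 and 981E1 lay inside the Aid+/+ range. On the log2 scale the genotypes had -0.65 ± 0.30 and 0.04 ± 0.55 (SD, n = 6 each), a difference of 0.69 (SE 0.24, 95% interval 0.17 to 1.22).

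Probe A_55_P2063256 behaved much as the probe before it. Its signal was 273, 434 and 327 in series 967B and 335, 249 and 255 in series 979B, in the clone order above. It was 706, 325 and 485 in series 979F and 414, 687 and 852 in the E series. The same Aid-/- clones were above or inside the Aid+/+ range as at the probe before it, and the genotypes overlapped. The log2 difference was 0.76 (SE 0.25, 95% interval 0.20 to 1.31).

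Probe A_55_P2063257 separated the genotypes least. It gave 238, 339 and 308 in series 967B and 270, 419 and 243 in series 979B. The Aid-/- clones gave 429, 253 and 348 in series 979F and 298, 452 and 499 in the E series. The log2 difference was 0.23 (SE 0.20, 95% interval -0.21 to 0.68), and it was -0.01 for 979F against 979B alone. Clone 979B3 was the brightest Aid+/+ clone at this probe, with 419, but the dimmest at the other 3 probes.

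A probe was called at an adjusted p under 0.05 and a change of more than 2-fold. Of the 4 galectin probes, 1 was called for the genotype, that of Lgals6, beside 19 of 55681 (0.0341%) over the whole array. Higher signal without overlap in Aid-/- clones was found for 1 of the 4 and for 388 (0.697%) of all probes. Among probes well above background on all arrays the share was 0.95%. Because this contrast chose Lgals6, nothing is read from its count. The number of probes called on the whole array ranged from 6, without 979F2, 979B1 or 981E4, to 33, without 967B2. The 3 Lgals4 probes did not pass in this comparison, and their log2 differences without 967B4 were 0.80, 0.87 and 0.28.

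Markers of other cells were set beside the galectins. All 8 intestinal epithelium markers had a probe, 3 were detected on every array, and Cdh17, Alpi and Fabp1 were detected on none. Their summed level was 1.26 to 3.14 times the 75th percentile in Aid+/+ clones (1.26 to 1.94 without 967B4) and 1.28 to 2.29 times in Aid-/- clones. The 8 markers of fibroblasts or feeder cells all had a higher average in Aid-/- clones, whereas 60.2% of all probes detected on every array had a lower one. Detection on every array held for 4 of these 8. The median log2 difference of all 8 was 1.77, and none was called (0.0341% on the whole array). Their summed level was 72.3 to 130 times the 75th percentile in Aid+/+ and 111 to 190 times in Aid-/- clones. Col1a2 differed by 2.28 (limma adjusted p = 0.306) and Col3a1 by 1.93 (0.268), with SDs of 2.43 and 1.66 between Aid+/+ clones, and 967B4 had the lowest Col1a2 signal (-3.79). Without 967B4 the median of the 8 was 1.15. Only 2 of the 8 endoderm markers were detected on every array, so most of their values include dim signals. The median log2 difference of all 8 was 0.70 (0.64 without 967B4). Their summed levels were 0.497 to 1.16 in Aid+/+ (0.546 to 1.16 without 967B4) and 0.76 to 1.43 in Aid-/- clones. None of the 8 was called (0.0341% on the whole array). Trophectoderm markers had summed levels of 1.30 to 3.16 in Aid+/+ (1.30 to 2.13 without 967B4) and 1.20 to 3.33 in Aid-/- clones. The part of any of these cells in the Lgals6 signal was not tested.

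The spread between clones of the same genotype is given as a description, since the test that listed Lgals6 used it. The SD of Lgals6 exceeded that of 86.4% of the 28322 probes well above background on all arrays in Aid+/+ and of 93.6% in Aid-/- clones. The median SD of these probes was 0.22 and 0.23. For the Lgals4 probes the shares were 67.7 to 69.7% in Aid+/+ and 84.0 to 92.8% in Aid-/- clones. The brightest Aid-/- clone had 2.93 times the Lgals6 signal of the dimmest, and the brightest Aid+/+ clone 2.38 times that of the dimmest.

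Within a genotype, clones high for Lgals6 were mostly high for Lgals4. Among Aid-/- clones, Lgals6 and A_51_P497100 had Pearson's r = 0.95 (exact permutation p = 0.0139, two-sided, adjusted p = 0.0208 over 12 relations, n = 6) and Spearman's rho = 0.89 (exact p = 0.0333, adjusted p = 0.0571). The other Lgals4 probes both had r = 0.95 to Lgals6 (exact permutation p = 0.0125 and 0.00972, adjusted p = 0.0208 for both) and rho = 0.94 (exact p = 0.0167, adjusted p = 0.0333). Without the 2 clones farthest from the median, 981E1 and 981E5, r was 0.99, 0.97 and 0.96. Clones 981E5, 981E4 and 979F1 were at the top and 979F2 and 981E1 at the bottom of all 4 probes.

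Among Aid+/+ clones, r was 0.90 for A_51_P497100 (exact permutation p = 0.0125, adjusted p = 0.0208) and 0.86 for A_55_P2063256 (exact p = 0.025, adjusted p = 0.0333), with rho = 0.83 for both (exact p = 0.0583, adjusted p = 0.0778). These values rested on 967B4 and 979B3: without them r was 0.50 and 0.24. For A_55_P2063257, r was 0.04 (exact permutation p = 0.926, adjusted p = 0.926, rho = 0.09 with exact p = 0.919 and adjusted p = 0.919), and 0.85 without those clones. The first 2 Lgals4 probes followed each other in both genotypes (r = 0.99 in each, exact permutation p = 0.00139 and 0.00278, adjusted p = 0.00833 and 0.0111). Their rho was 1.0 in Aid+/+ and 0.94 in Aid-/- clones (exact p = 0.00278 and 0.0167, adjusted p = 0.0167 and 0.0333), and r without the 2 farthest clones was 0.94 and 0.99. Series and slide hold only 3 clones of a genotype each, too few for a value within them. Lgals4 and Lgals6 are close paralogues whose sequences were not compared here. How far a probe of one also binds transcripts of the other was not tested, so levels of the paralogues are uncertain apart from each other.

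**Figure D2:**
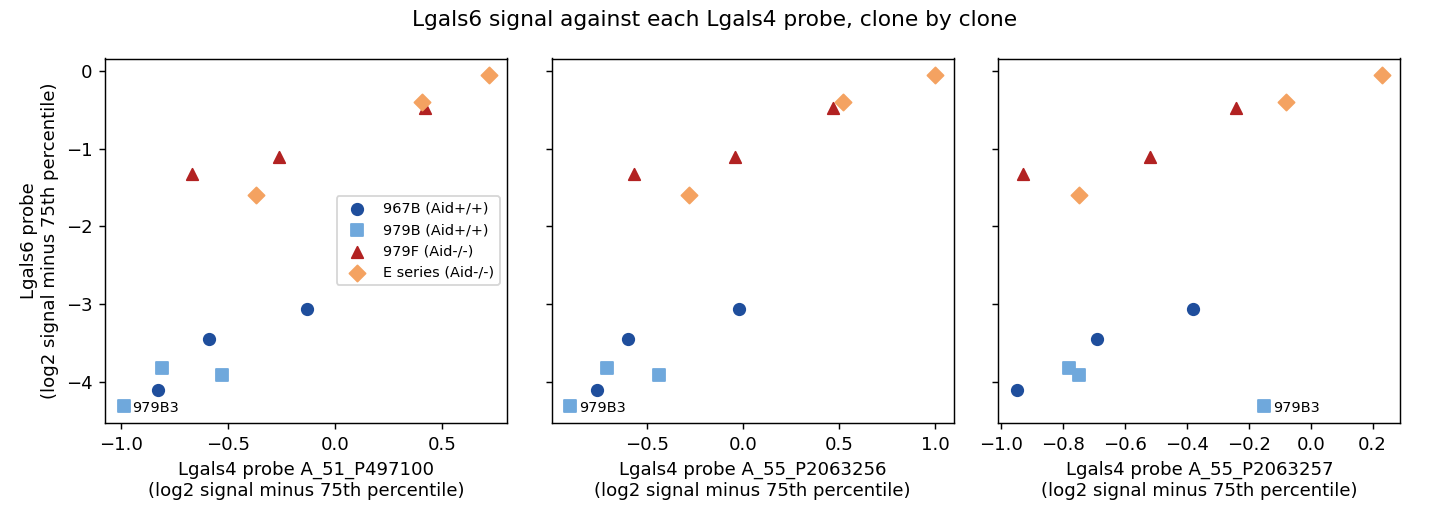
Log2 signal of the Lgals6 probe (vertical axis) against that of each Lgals4 probe (horizontal axes), both minus the 75th percentile of the array, with a point per clone. The genotypes are apart on the vertical axis, whose probe was chosen for that difference, and overlap on each horizontal axis. Within a genotype r ranges from 0.04 to 0.95, and clone 979B3 stands off to the right at A_55_P2063257.

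Differences between series of the same genotype are another contrast than the one that chose Lgals6, although they add to the spread its listing used. They were tested in limma over all probes. In Aid+/+ clones, Lgals6 was -3.54 ± 0.52 in 967B and -4.03 ± 0.26 in 979B (SD, n = 3 each), a log2 difference of -0.48 (SE 0.41, 95% interval -1.39 to 0.42, limma adjusted p = 0.825). In Aid-/- clones it was -0.97 ± 0.43 in 979F and -0.68 ± 0.82 in the E series, a difference of -0.28 (SE 0.41, 95% interval -1.19 to 0.62, limma adjusted p = 0.823). Without 981E5 the latter was 0.03. Both differences were within the spread between clones, and the intervals still allow more than a 2-fold difference. From highest to lowest came the E series, 979F, 967B and 979B, and neighbours within a genotype did not differ beyond their spread.

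The 3 Lgals4 probes had log2 differences of -0.26 to 0.11 between 979B and 967B (limma adjusted p = 0.959 to 1.0) and of -0.46 to -0.36 between 979F and the E series (limma adjusted p = 0.562 to 0.581). None of the 4 galectin probes was called in either comparison, nor had any an unadjusted p under 0.05 (the lowest was 0.262 in Aid+/+ and 0.222 in Aid-/-, from limma). On the whole array, 281 probes (0.505%) were called between the Aid+/+ series and 959 (1.72%) between the Aid-/- series. Leaving out 967B4 raised these counts to 782 and 1540, and leaving out 967B6 or 979F3 lowered them to 137 and 245.

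The genotype difference of Lgals6 was 0.20 larger on the log2 scale for 979F against 979B than for the E series against 967B (SE 0.58, 95% interval -1.08 to 1.48, limma adjusted p = 0.962). For the Lgals4 probes this difference was -0.16, -0.24 and -0.48 (limma adjusted p = 0.963, 0.937 and 0.768). The value for Lgals6 changed sign without 967B4, 979F1 or 981E1 (-0.03, -0.04 and -0.26) and with normexp correction (-0.19). None of the 4 was called, against 59 probes (0.106%) on the array, a count that ran from 14 without 979F3 to 164 without 967B4. A difference of this size between the pairs of series was not detectable with 3 clones each.

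**Figure D3:**
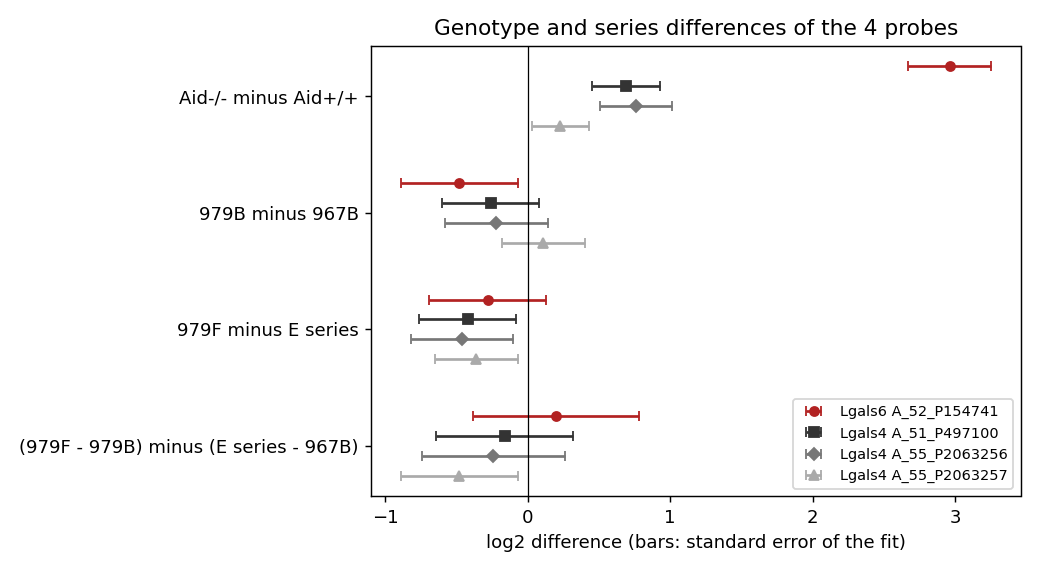
Log2 differences (horizontal axis) of the 4 probes for the genotype, for the series within each genotype, and for the difference of the genotype difference between pairs of series. Bars are standard errors of the fit. Lgals6 lies at 2.96 for the genotype and between -0.48 and 0.20 in the other comparisons.

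The genes whose signal followed that of Lgals6 most closely were ranked by Pearson's r among 17583 named probes that were detected on every array, as a description. Over all 12 clones these were Zfp607b, a zinc finger gene (0.90), Cyp26b1, which encodes an enzyme that breaks down retinoic acid (0.88), the tropomyosin gene Tpm3 (0.88), Ttc9b (0.87) and the pseudogene Pisd-ps2 (0.87). These values mostly carry the genotype difference, which the choice of Lgals6 fixed. Only Tpm3 stayed among the 5 with Spearman's correlation, and only Zfp607b and Cyp26b1 with quantile normalization. With the genotype averages taken off, the closest were Btf3l4 (0.93), Btnl5-ps (0.92), Efcab11 (0.91), 2610524H06Rik (0.90) and Enox2 (0.89), and 4 of these 5 stayed under either alternative. The Lgals4 probes A_51_P497100 (0.92) and A_55_P2063256 (0.91) would rank 3 and 4 in that order, and A_55_P2063257 (0.64) would rank 849.

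Zfp607b and Ttc9b lie on chromosome 7 as well, on the same side of Lgals4, 66 and 68 genes away in RefSeq order. Like the Lgals6 probe, their probes were listed by the study as different between the genotypes on these same arrays. Their p-values and calls for the genotype are therefore given as descriptions. Zfp607b was -2.65 to -1.91 in Aid+/+, -0.39 to 0.10 in series 979F and 0.91 to 1.18 in the E series. Its log2 difference was 2.67 (SE 0.29, limma adjusted p = 0.0072). Ttc9b rose by 1.31 (SE 0.13, limma adjusted p = 0.00392), from -3.42 ± 0.22 to -2.12 ± 0.22 (SD, n = 6 each). Neither lost its call without any 1 clone, but Ttc9b was not called for the E series against 967B alone (1.40, limma adjusted p = 0.215), nor for 979F or the E series against 979B alone, nor with normexp correction (0.69). Of 3121 probes placed on chromosome 7, 2 were called (0.0641%), against 16 of 43429 placed on any chromosome (0.0368%), with 3 further called probes not placed, Lgals6 among them.

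No gene around Lgals4 was called for the genotype. Of the 15 RefSeq genes on each side, 20 had a probe, and 18 of these were detected on all arrays, meaning well above background. None of the 20 was called (0.0341% on the whole array) or had an adjusted p under 0.05 (0.0611% on the whole array), and the lowest was 0.0523 from limma. An unadjusted p under 0.05 was found for 5 of the 20 probes and for 13.6% of all probes. Of the 18 detected, 15 had a lower average in Aid-/- clones, as had 60.2% of all probes detected on every array. Their median log2 difference was -0.09, against -0.06 for all such probes.

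The genotypes did not overlap at 3 of the 20, all lower in Aid-/- clones, beside 1210 (2.17%) of all probes in either direction and 3.69% of those detected on all arrays. These were Ech1, Map4k1 and Eif3k, singled out after their values were seen. Ech1, a gene of fatty acid oxidation and the immediate neighbour of Lgals4, was 2.61 to 3.02 in Aid+/+ and 2.11 to 2.58 in Aid-/- clones. Its log2 difference was -0.53 (SE 0.10, limma adjusted p = 0.0781). Map4k1, a kinase of blood cell signalling, was 3.24 to 3.90 and 2.53 to 2.85, a difference of -0.73 (SE 0.12, limma adjusted p = 0.0523). Eif3k, a subunit of translation initiation factor 3, differed by -0.15, and by 0.0 after quantile normalization. Without 1 clone, the limma adjusted p was 0.0576 to 0.174 for Ech1 and 0.0296 to 0.134 for Map4k1. With other settings (limma or the methods' t-test), adjusted p-values lay on both sides of 0.05. They ran from 0.0231 to 0.631 for Ech1 and from 0.0161 to 0.448 for Map4k1. Without 967B4 the log2 difference of Map4k1 was -0.63 (limma adjusted p = 0.0296), under 2-fold.

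On the other side of Lgals4, Lgals7, a galectin of stratified epithelium, was dim in all clones and had a log2 difference of -0.76 (SE 0.30, limma adjusted p = 0.297). Its genotypes overlapped, with 967B4 at -4.45 below every Aid-/- clone. The other Aid+/+ clones, at -3.02 to -2.55, were all above the Aid-/- clones, at -4.36 to -3.29. The other nearest detected genes differed little. Hnrnpl had -0.03, Capn12 -0.06, Rinl -0.12 and Actn4 0.00 on the log2 scale.

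**Figure D4:**
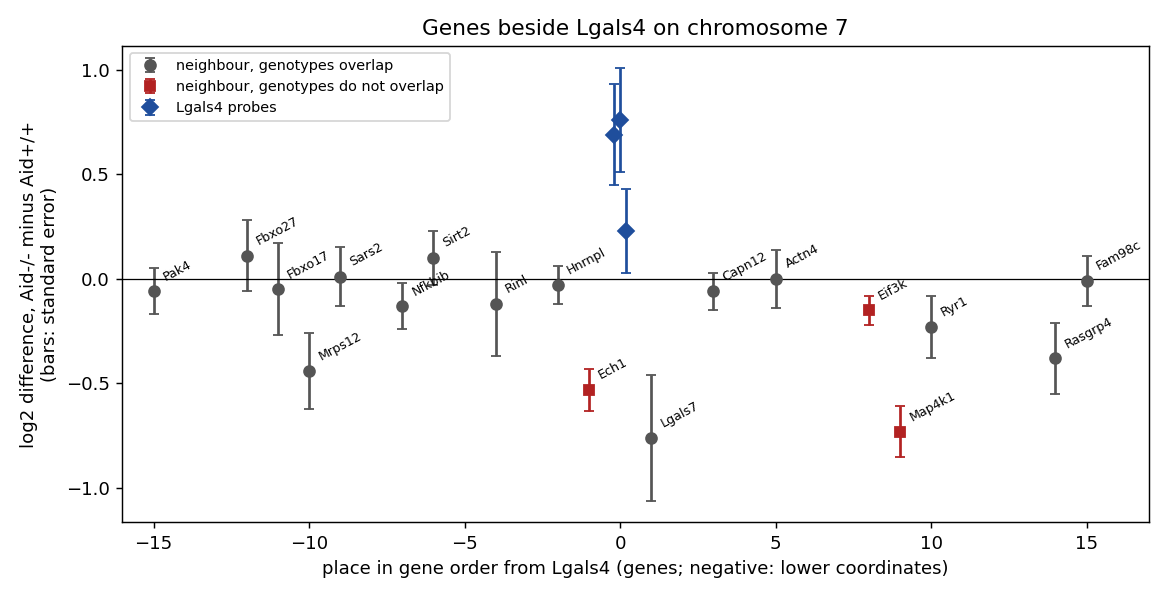
Log2 difference between Aid-/- and Aid+/+ clones (vertical axis) with its standard error for genes around Lgals4 detected on all 12 arrays, against their place in the RefSeq gene order (horizontal axis). The 3 Lgals4 probes at 0.23 to 0.76 lie above all neighbours, which range from -0.76 to 0.11, and red squares mark Ech1, Eif3k and Map4k1, whose genotypes do not overlap.

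All 11 genes of the galectin family list had a probe, 13 in all. Apart from Lgals6, which was chosen for its genotype difference, none was called for the genotype (0.0341% on the whole array). The family's median log2 difference, Lgals6 included, was 0.08 (0.03 without 967B4), against -0.01 over all probes. Lgals12, a galectin of fat cells, was well above background on no array. Lgals1, the prototype galectin of mesenchymal cells, had 5.20 ± 0.60 in Aid+/+ and 5.95 ± 0.42 in Aid-/- clones, a log2 difference of 0.74 (SE 0.28, limma adjusted p = 0.268). Lgals8, another tandem-repeat galectin, had a difference of 0.45 (SE 0.15, limma adjusted p = 0.217). Lgals3, a galectin with a collagen-like tail that is common in macrophages and epithelia, had 0.07, Lgals9, a tandem-repeat galectin of immune cells, 0.08, the lens galectin Grifin 0.39, Lgals2 -0.40 and Lgalsl -0.14 (limma adjusted p = 0.298 to 1.0).

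Between series, Lgals2, a galectin of the digestive tract, was the only family member called. It was lower in 979F (-3.93 to -3.31) than in the E series (-2.43 to -1.13), with a log2 difference of -1.76 (SE 0.40, limma adjusted p = 0.0473, beside 1.72% of all probes called). This call was lost without any 1 of 11 of the 12 clones (981E5, 979F2 and 979F3 among them) and held only without 967B4. Without 1 clone the log2 difference ranged from -2.01 to -1.36 and the adjusted p from 0.0261 to 0.152. The call was also lost with quantile normalization (-1.73, limma adjusted p = 0.0529) and with normexp correction, where the change was under 2-fold (-0.94).

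Of 19 genes for galectin ligands and for the enzymes that build their glycans, 18 had a probe. None was called for the genotype (0.0341% on the whole array), and their median log2 difference was 0.05. The largest differences among those detected on all arrays were 1.20 for Cd44, the hyaluronan receptor, 0.52 for Lgals3bp, a secreted galectin-binding glycoprotein, 0.51 for Gal3st1, which sulfates galactosylceramide to sulfatide, and 0.48 for the surface peptidase Dpp4 (limma adjusted p = 0.308, 0.10, 0.634 and 0.355). Cd44 ran from -2.52 to 0.57 in Aid+/+ and from -0.3 to 1.33 in Aid-/- clones (SE of the difference 0.49). The genotypes did not overlap at 2 of the 18 genes, beside 2.17% of all probes in either direction and 3.69% of those detected on all arrays. These were Lgals3bp, higher in Aid-/- clones, and Ugt8a, which makes galactosylceramide and was lower (-0.46, limma adjusted p = 0.0903).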

How the data were processed

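The authors scanned 12 1-colour arrays, 1 per clone, with Feature Extraction 10.7.3.1 and deposited a processed intensity for each spot, corrected for background, and spot and local background medians. They also deposited log2 values scaled to the 75th percentile in GeneSpring GX 11, used as an alternative. Here control and outlier spots were removed, replicate spots averaged as log2 of the processed intensity, and arrays aligned at their 75th percentile. The fit covered 55681 non-control probes in limma 3.58.1 (R 4.3.3, lmFit and eBayes) with Benjamini-Hochberg adjustment, for the genotype without covariates and for series as means per series. Accessions of 27235 probes matched RefSeq genes of GRCm38.p6, used for names and gene order only, since the array design is of mm9. The fit was tested on simulated data.

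The probes, gene lists and tests were chosen with earlier results of these data known. Named genes were all galectins detected on at least 6 arrays, the 4 ligand genes with the largest differences, the 6 nearest detected neighbours of Lgals4 and the 5 probes most like Lgals6. Lgals12, Ugt8a, Map4k1, Eif3k, Col1a2 and Col3a1 were named after their values were seen. Replicates are separate clones. Alternatives were other background corrections, scalings, filters, blocks for slide and series, the methods' t-test and leaving out each clone. The targeted gene's own signal is not reported here.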

Additional observations from a re-analysis of the deposited data

Results flagged for a closer look

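For the 47 probes whose values are described or plotted here, 92 groups of 6 clones with a detected signal were examined for a clone far from the rest. Chance would flag about 1 in 20 (4.6 groups) if groups were independent and probes were chosen without their values. Groups share clones, however, and Map4k1, Eif3k and Col1a2 were named after their values were seen. The 8 groups found are therefore a description, 6 of them for the Aid+/+ clone 967B4. On the log2 scale this clone was at 1.27 for Btf3l4 (other 5 clones 0.83 to 0.98), at -4.45 for Lgals7 (-3.02 to -2.55), at -1.99 for Lgals9 (-0.07 to 0.55), at 7.31 for Eif3k (7.13 to 7.19), at 3.90 for Map4k1 (3.24 to 3.39) and at -3.79 for Col1a2 (0.75 to 2.71). The Aid+/+ clone 979B4 was at -4.01 for Capn12 (-3.77 to -3.67), and the Aid-/- clone 981E4 at -0.88 for Lgals3bp (-1.45 to -1.30). None was a probe of Lgals4 or Lgals6.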

How the results depend on the processing

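The log2 difference of Lgals6 between the genotypes kept its direction under every setting run. For pairings of series, slide as a fixed block and leaving out 1 clone, the lack of overlap fixed that direction. The probe filters, the intensity trend, the methods' t-test and series as a random block left the estimate at 2.96. They could not change it, so the direction under these settings adds nothing. The difference lay between 2.58 and 3.34 in all but normexp background correction (1.75). The Lgals4 probe A_55_P2063257 changed sign for 979F against 979B alone (-0.01). The number of probes called for the genotype, 19, became 29 with quantile normalization, 33 and 49 when only probes well above background on at least 1 or on all arrays were tested, 53 with an intensity trend and robust estimation, 37 with the methods' t-test, 1185 and 9 with slide as a fixed or random block, 6 with series as a random block, 690 on slide 3 alone, 231 for 979F against 979B, 5 for the E series against 967B, 200 for 979F against 967B (a pairing added after seeing the data), and 6 to 33 without 1 clone. Only slide 3 held both genotypes. With slide as a fixed block, the difference thus comes from the E series against 979B alone, with the spread taken from all clones. With normexp, 119 probes were called between the Aid+/+ series and 395 between the Aid-/- series. Without 1 clone, 137 to 782 and 245 to 1540 were called. Between pairs of series, 92 were called among probes detected on all arrays, and 14 to 164 without 1 clone. Differences near 0 changed sign: Lgals6 between pairs of series with normexp (-0.19) and without 1 clone (-0.26 to 0.52), Lgals6 between the Aid-/- series (-0.74 to 0.03), A_55_P2063257 between the Aid+/+ series (-0.09 to 0.26), and between pairs of series A_51_P497100 (-0.48 to 0.09) and A_55_P2063256 (-0.59 to 0.05). Eif3k was at 0.0 with quantile normalization. The causes were not tested. No paired analysis was possible because the clone numbers do not link clones of different genotypes. Dim signal limits Lgals6 in Aid+/+ clones most.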
